A study of Mus musculus with 8 samples.

Results

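Axon guidance ligands and receptors are the secreted or membrane-bound cues, and the receptors on growing axons that read them, belonging to the semaphorin and plexin, ephrin and Eph, Slit and Robo, and netrin and Unc5 families. Members were taken by gene symbol alone from the array's probe annotation, as every symbol beginning with a family name of these groups. The whole table held 31334 genes, called all genes below. Of these 19087 have a symbol, and the others are array rows without a single symbol, each counted as a gene. The members were 66 genes measured by 132 array spots. They comprised 19 semaphorins, 9 plexins, 8 ephrins, 9 EphA receptors, 4 EphB receptors, 3 Slits, 3 Robos, 4 netrins, 2 netrin-Gs, 4 Unc5 receptors and Unc5cl, a death-domain protein that shares the Unc5 name but is not known as a netrin receptor. No measured value entered their selection.

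The RNA came from the nucleus accumbens, the ventral part of the striatum, of male mice trained by conditioned place preference, where animals come to associate one compartment with an injection. Cocaine mice were given 15 mg/kg cocaine on days 2, 3 and 4, and saline mice were given saline solution on those days. The labels state no strain, age or time of dissection. On each 2-colour array RNA of 1 cocaine mouse was hybridised against RNA of 1 saline mouse, in 4 hybridisations with 8 different animal codes. Cocaine RNA carried the red dye Cy5 in 2 of them (cocaine in Cy5, replicates 1 and 2) and the green dye Cy3 in the others (saline in Cy5, replicates 1 and 2). Both an Axon and an Agilent scanner read every array, and the mean of the 2 scans was 1 value, so n was 4 pairs of mice throughout.

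In the developing brain semaphorins, ephrins, Slits and netrins attract or repel axon tips through plexins, Eph kinases, Robos and Unc5 receptors. In the adult brain the same proteins stay on synapses, dendrites, glia and vessels, where they take part in spine shape and synapse number. In the striatum, Sema3e from incoming thalamic axons and its receptor Plxnd1 on medium spiny neurons of the direct pathway are known to set the connections between these cells, and ephrins with Eph receptors are known to help sort striatal compartments.

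The deposited values are log2 ratios, not levels, so the tissue label could not be checked against the amount of any marker. Ratios are read as cocaine over saline, which the labels do not state and which is only the likely reading. All columns run the same way with respect to treatment. The difference between the scanners, which belongs to the dyes, correlated across rows at 0.51 to 0.52 for arrays of like orientation and at -0.54 to -0.49 for arrays of opposite orientation. The sign itself rests on taking the cocaine in Cy5 columns as channel 1 over channel 2, so every direction below would turn if that reading were wrong. Every gene name rests on a grid layout by which rows were matched to probes. Under it, 4735 pairs of spots of the same transcript record correlated at 0.52, against -0.01 row by row.

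Cocaine and saline were compared to ask which guidance genes differ in the accumbens after the place preference procedure. None of the 66 genes passed the test across all genes (limma, Benjamini-Hochberg adjusted p below 0.05, two-sided), where 8 of 31334 genes passed, or 0.0255%. At an unadjusted p below 0.05 there were 4 guidance genes, or 6.06% of the members, against 6.04% of all genes. All 4 were on the higher side, where 2.8% of all genes lay, and 0 were on the lower side, where 3.24% of all genes lay. These were Efnb2, Ephb6, Slit3 and Sema4f, with limma adjusted p-values between 0.738 and 0.817. The median log2 ratio of the members was 0.03, as it was over all genes (0.03), and 35 members (53.0%) lay above 0, against 56.6% of all genes. Of the 19087 genes with a symbol, 11441 lay above 0, with a median of 0.04. At an unadjusted limma p below 0.05, 521 of those were higher and 445 lower. The typical size of a ratio, whatever its sign, was 0.17 in the members and 0.13 over all genes on the log2 scale. With saline in Cy5 replicate 1 left out, 0 members had an unadjusted p below 0.05. Fits without 1 hybridisation leave 1 residual degree of freedom, and limma then used 1 common variance for all genes. Their counts of genes passing over the whole table cannot be set beside the 8 above.

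The intervals give the uncertainty of each gene's estimate, not the size of difference that the adjusted test could have missed. The 95% interval of a member reached between 0.36 and 0.41 on the log2 scale to either side of its estimate, a factor of 1.28 to 1.33. Efnb2 lay further from 0 than that, at 0.48, and did not pass the adjusted threshold (limma adjusted p = 0.738). All 66 intervals lay between -0.76 and 0.84 on the log2 scale, hence inside a doubling or halving, and 62 of them spanned 0. These are intervals for single genes, not adjusted for their number, and nothing in them shows that cocaine and saline mice had equal levels.

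**Figure D1:**
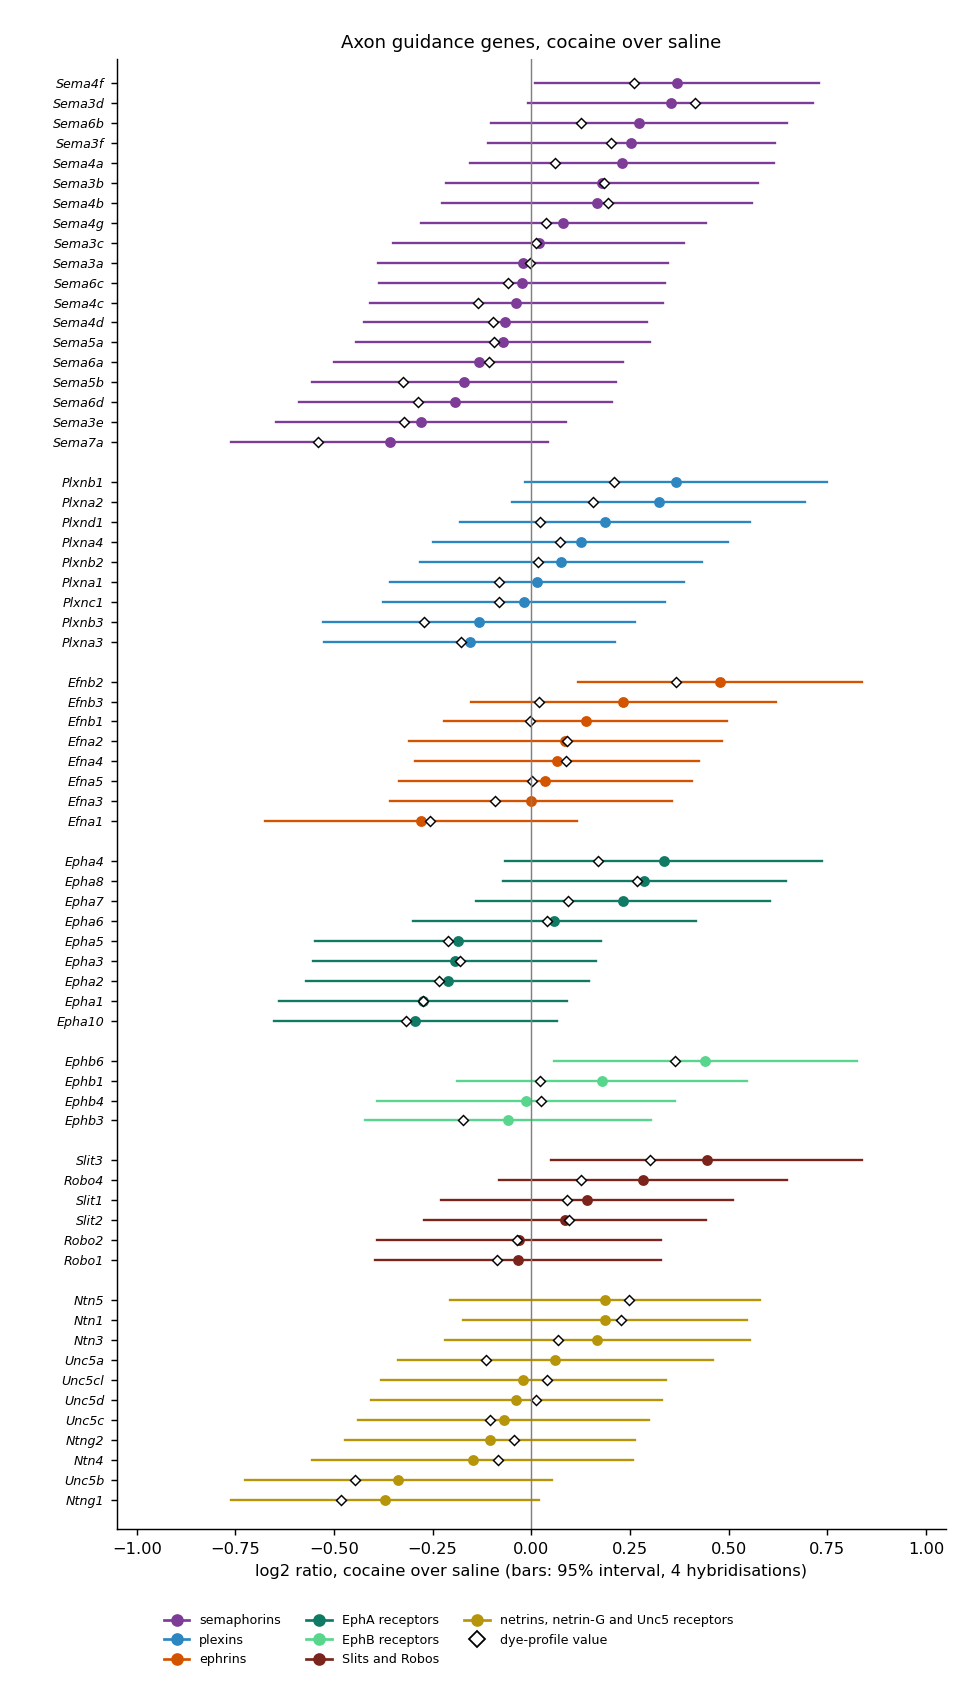
Log2 ratio of cocaine over saline for each of the 66 genes, grouped by family and coloured accordingly, with filled circles for the fitted ratio after median centring, bars for its 95% interval over 4 hybridisations and open diamonds for the dye-profile value. Intervals of 62 genes cross 0, and the 4 that do not, for Efnb2, Ephb6, Slit3 and Sema4f, lie above 0.

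Many ratios carried a dye effect besides the treatment. After median centring, which sets the middle of each array to 0, 39 of the 66 genes had a dye coefficient with a limma adjusted p below 0.05 (59.1%, against 77.9% of all genes). It pointed towards Cy5 in 27, where 34.5% of all genes did so, and towards Cy3 in 12. The median dye coefficient was 0.21 in the members, -0.19 over all genes and 0.14 over genes with a symbol. For 56 members the dye coefficient was larger than the cocaine ratio. The fit averages the 2 orientations, which cancels only a dye effect of the same size in both. Across genes the dye coefficient correlated with the centred cocaine ratio at r = 0.40 over all genes and 0.24 over the members. On a second scale, the dye-profile values, a smooth curve along the average dye ratio of each spot is removed from each scan. There these correlations were -0.01 and -0.12. On that scale 0 of the 66 genes passed the adjusted threshold by limma, with a lowest adjusted p of 0.67, and 0% of all genes did. At an unadjusted p below 0.05 there were 11 members there (16.7%, against 7.25% of all genes), 5 higher (3.45% of all genes) and 6 lower (3.79%). Members above 0 again numbered 35 (53.0%), against 49.8% of all genes, and 20 members (30.3%) had the same sign in all 4 hybridisations, against 19.1%. Efnb2, Ephb6 and Sema4f were among them, 3 of the 4 found after centring.

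Among ephrins, the membrane-anchored ligands of Eph receptors, Efnb2 had the smallest p of all members after centring. In dye-profile values and with Axon scans alone the p of Sema3d was smaller, and with Agilent scans alone those of Slit3, Epha8 and Ntng1 were. Efnb2 encodes ephrin-B2, a transmembrane ligand of arteries and of neurons. Its centred log2 ratios were 1.19 and 1.18 with cocaine in Cy5 and -0.10 and -0.36 with saline in Cy5. The orientations did not overlap, and their mean was 0.48 ± 0.17 (SE, n = 4, limma adjusted p = 0.738), a 1.39-fold ratio. In dye-profile values the 4 hybridisations all lay above 0, at 0.42 and 0.10 with cocaine in Cy5 and 0.46 and 0.48 with saline in Cy5. The lowest of these, cocaine in Cy5 replicate 2, stood apart from the other 3. Both Efnb2 spots were above 0, at 0.57 and 0.38 on the log2 scale.

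Efna1, a lipid-anchored ligand of EphA receptors, stood lowest among the ephrins at -0.28 ± 0.19 on the log2 scale (limma adjusted p = 0.868). Its centred ratios were -0.47 and -1.12 with cocaine in Cy5 and -0.13 and 0.60 with saline in Cy5, so 1 pair of mice went the other way. The other 6 ephrins had log2 ratios between -0.002 and 0.23 with unadjusted limma p of at least 0.221. Efnb3, the ephrin-B known from the midline of the spinal cord, was the highest of them at 0.23 ± 0.18, and its dye-profile ratio was 0.02.

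EphA receptors, the tyrosine kinases that mainly bind ephrin-A ligands, had the lowest family median, -0.19 on the log2 scale, with 5 of 9 below 0 and 0 at an unadjusted p below 0.05. The family median lay between -0.22 and -0.06 under every setting tried, and no list test was made. Epha10, whose kinase domain is predicted to be inactive, had the same sign in every pair of mice. Its centred log2 ratios were -0.25 and -0.17 with cocaine in Cy5 and -0.29 and -0.47 with saline in Cy5. The orientations lay close to each other, and the fitted ratio was -0.29 ± 0.17 (limma adjusted p = 0.858). Epha8, a receptor best known from the midbrain, mirrored it above 0, with 0.38 and 0.22 with cocaine in Cy5 and 0.28 and 0.27 with saline in Cy5. Its fitted ratio was 0.29 ± 0.17 (limma adjusted p = 0.859). These values are means of scans that disagreed. The scanners differed in sign in cocaine in Cy5 replicate 2 and in both saline in Cy5 pairs. The Epha8 ratio was 0.44 ± 0.15 with Agilent scans alone and 0.14 ± 0.23 with Axon scans alone.

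Epha1, an Eph kinase of epithelia, gave -0.30 and -0.73 with cocaine in Cy5 and -0.004 and -0.07 with saline in Cy5. Its ratio was -0.06 with Agilent scans alone and -0.49 with Axon scans alone. Epha5, a receptor of forebrain neurons, gave -0.32 and -0.001 with cocaine in Cy5 and -0.28 and -0.14 with saline in Cy5. With Epha8 and Epha10 these were the only 4 members with the same sign in all 4 centred hybridisations, 6.06% of the members against 1.84% of all genes. Among them only Epha10 kept its sign on both scanners in every hybridisation. All 4 are EphA receptors, and none had a dye effect past the threshold, with dye coefficients between -0.24 and 0.09 on the log2 scale. For Epha5 the coefficient of 0.02 averages 3 spots with opposite dye effects, of 0.96, -0.41 and -0.48. Each of these Epha5 spots had values on both sides of 0, so the common sign holds for their mean only. A gene with a large dye effect has opposite signs in the 2 orientations by construction, so this count follows the dye as well as the treatment.

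Epha4, a receptor that binds ephrins of both classes and is known from synapses and astrocyte contacts, had centred ratios of 1.34 and 1.95 with cocaine in Cy5 and of -0.55 and -1.40 with saline in Cy5. The fitted log2 ratio was 0.34 ± 0.19 (limma adjusted p = 0.858), and its 2 spots differed, at 0.54 and 0.14. Epha2, a kinase of epithelia and vessels, stood at -0.21 ± 0.17 and Epha3, a receptor of axons and mesenchyme, at -0.19 ± 0.17 on the log2 scale. Epha6 and Epha7, the others of this class, lay at 0.06 and 0.23.

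Of the EphB receptors, which mainly bind ephrin-B ligands, Ephb6 had a log2 ratio of 0.44 ± 0.18 (limma adjusted p = 0.784). Ephb6 lacks kinase activity. Its centred ratios were 0.70 and 1.10 with cocaine in Cy5 and 0.33 and -0.38 with saline in Cy5, so 3 of 4 lay above 0. In dye-profile values all 4 lay above 0, between 0.12 and 0.64. Ephb3, a receptor of commissural axons and gut epithelium, stood at -0.06 ± 0.17, and Ephb1 and Ephb4 at 0.18 and -0.01. Efnb2 at 0.48 thus stood beside 0.18, -0.06 and -0.01 for Ephb1, Ephb3 and Ephb4, kinases that bind it. It also stood beside 0.44 for Ephb6 and 0.34 for Epha4, the receptor that binds ephrins of both classes. Ephb2 is not among the members. The differences between the measured genes were not tested.

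**Figure D2:**
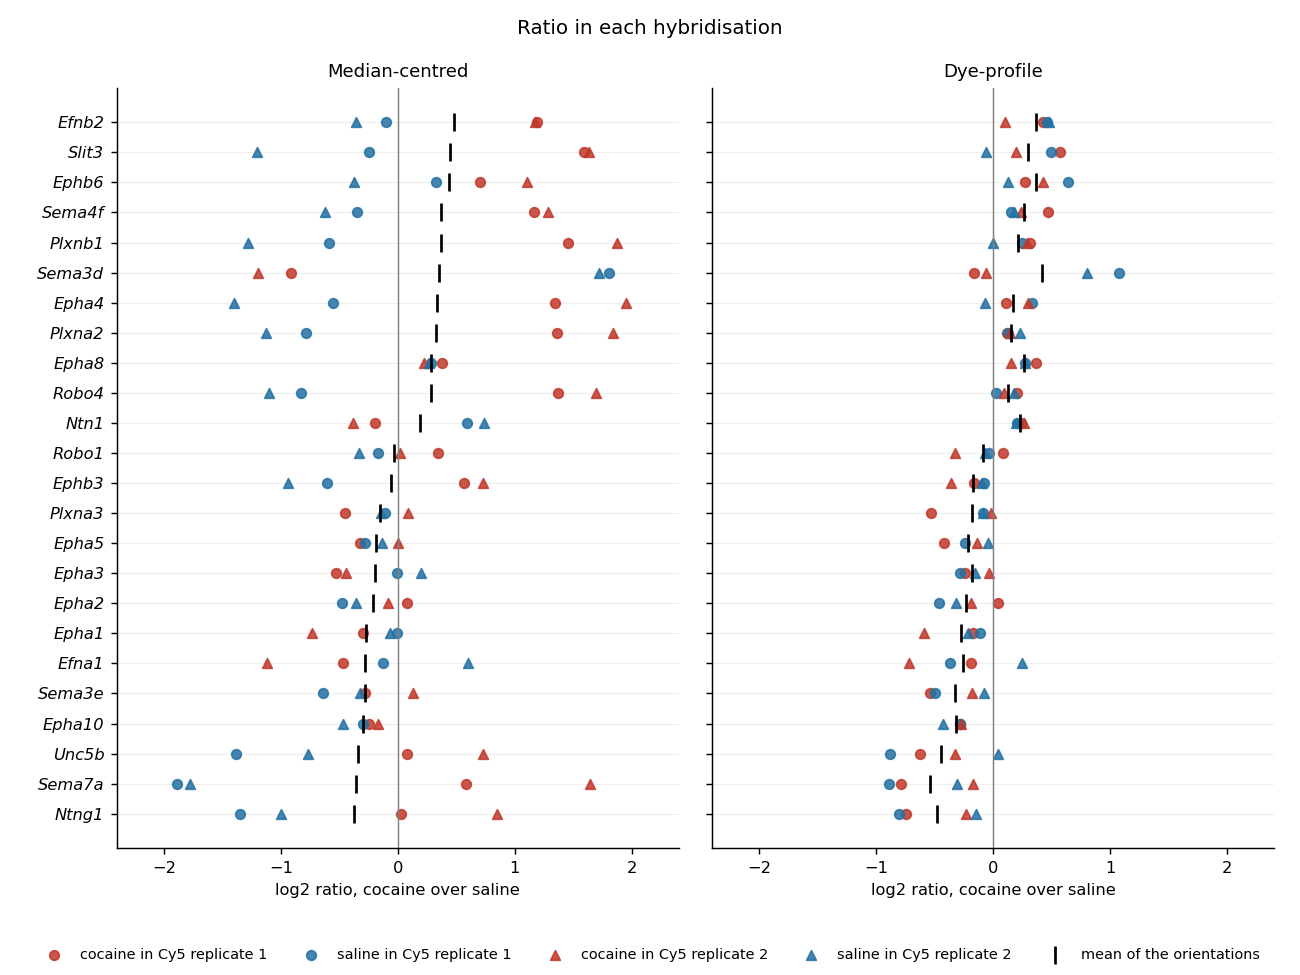
Log2 ratio of cocaine over saline in each of the 4 hybridisations for the 24 genes named by the selection rule, after median centring (left) and as dye-profile values (right), with circles for replicate 1, triangles for replicate 2, red for cocaine in Cy5, blue for saline in Cy5 and a black tick for the fitted ratio. The colours separate for most genes on the left, and Epha1, Epha5, Epha8 and Epha10 have all 4 values on one side of 0 in both panels.

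Semaphorins, the ligands of plexins, split evenly, with 9 above and 10 below 0 and a median of -0.02 on the log2 scale that lay between -0.06 and 0.08 over the settings tried. Sema4f, a membrane-bound semaphorin of neurons and of Schwann cells, had centred ratios of 1.16 and 1.28 with cocaine in Cy5 and -0.35 and -0.62 with saline in Cy5. The fitted ratio was 0.37 ± 0.17 (limma adjusted p = 0.817), and the 4 dye-profile values lay between 0.15 and 0.47. They were all above 0.

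Sema7a, a lipid-anchored semaphorin that acts through Plxnc1 and integrins, had the lowest centred ratio of the family. Its centred ratios were 0.58 and 1.64 with cocaine in Cy5 and -1.88 and -1.78 with saline in Cy5, and the fitted ratio was -0.36 ± 0.19 (limma adjusted p = 0.842). Without cocaine in Cy5 replicate 1 it was -0.10, above the -0.18 of Sema3e, and without cocaine in Cy5 replicate 2 it was -0.62. The dye coefficient was 1.47 on the log2 scale. In dye-profile values Sema7a lay below 0 in all 4 hybridisations, at -0.78 and -0.17 in the cocaine in Cy5 pairs and at -0.89 and -0.31 in the saline in Cy5 pairs. Replicate 1 was the lower in both orientations. The fitted dye-profile ratio was -0.54 ± 0.16 (limma adjusted p = 0.67). Plxnc1 stood at -0.02 ± 0.17.

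Sema3e, the secreted ligand of Plxnd1, had centred ratios of -0.28 and 0.13 with cocaine in Cy5 and of -0.64 and -0.33 with saline in Cy5. Of the 4 pairs of mice 3 lay below 0, and the fitted log2 ratio was -0.28 ± 0.18 (limma adjusted p = 0.866). Its 4 spots, each of a different transcript record, all lay below 0, between -0.38 and -0.16. Plxnd1 stood at 0.19 ± 0.17 on the log2 scale with a dye-profile ratio of 0.02. After centring the intervals of both genes spanned 0. In dye-profile values Sema3e stood at -0.32 ± 0.13, with a 95% interval of -0.64 to -0.01 that lay below 0 (limma adjusted p = 0.67).

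Sema3d, another secreted semaphorin, gave different answers on the 2 scanners. Its fitted log2 ratio was 0.35 ± 0.17 from the mean of the scans (limma adjusted p = 0.822), 0.76 ± 0.23 from the Axon scans alone and -0.05 ± 0.17 from the Agilent scans alone. The dye-profile ratios were -0.16 and -0.06 with cocaine in Cy5 and 1.07 and 0.80 with saline in Cy5, so the orientations still disagreed after the dye correction. Over all 66 members 49 had the same sign on both scanners, and the ratios of the scanners correlated at r = 0.64 across genes, which are not independent replicates.

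Of the 15 other semaphorins none came below an unadjusted limma p of 0.144 after centring, with log2 ratios between -0.19 (Sema6d) and 0.27 (Sema6b). Sema5b, a semaphorin with thrombospondin repeats, stood at -0.17 ± 0.18 after centring and at -0.32 ± 0.11 in dye-profile values (limma adjusted p = 0.67). Sema3a, the founding repellent of this class, was at -0.02 ± 0.17, and Sema4d, a ligand of Plxnb1, at -0.07 ± 0.17.

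Plexins were above 0 in 6 of 9 cases, with a median of 0.08 on the log2 scale after centring and of 0.02 in dye-profile values. Plxnb1, the Sema4d receptor, had centred ratios of 1.46 and 1.88 with cocaine in Cy5 and -0.59 and -1.28 with saline in Cy5. Its fitted ratio was 0.37 ± 0.18 (limma adjusted p = 0.832), and its 2 spots stood at 0.35 and 0.38. Plxna2, a receptor of class 6 semaphorins, had a fitted log2 ratio of 0.32 ± 0.18 (limma adjusted p = 0.85), from 1.36 and 1.84 with cocaine in Cy5 and -0.78 and -1.13 with saline in Cy5. Removing the dye profile brought these ratios to 0.21 ± 0.10 for Plxnb1 and 0.16 ± 0.09 for Plxna2. Plxna3, a partner of neuropilins, was the lowest of the family at -0.16 ± 0.18, and the other 6 plexins lay between -0.13 and 0.19.

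Slit ligands, secreted repellents read by Robos, were all above 0. Slit3 had centred ratios of 1.59 and 1.64 with cocaine in Cy5 and -0.25 and -1.20 with saline in Cy5, which gave 0.44 ± 0.19 (limma adjusted p = 0.79). Its 3 spots, each of a different transcript record, agreed closely at 0.43, 0.45 and 0.45 on the log2 scale. The pairs of mice agreed less, with dye-profile values of 0.57, 0.20, 0.49 and -0.06, and without saline in Cy5 replicate 1 the centred Slit3 ratio was 0.21. Slit1 stood at 0.14 ± 0.18 and Slit2 at 0.09 ± 0.17. Robo4, the Robo of vascular endothelium, was at 0.28 ± 0.17 (limma adjusted p = 0.86), while Robo1 and Robo2, the Robos of axons, were at -0.03 ± 0.17 and -0.03 ± 0.17 on the log2 scale.

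Among netrins and their relatives the lowest centred value was that of Ntng1, which encodes netrin-G1, a lipid-anchored protein of thalamic and other axons that binds the ligand Lrrc4c. Its centred ratios were 0.02 and 0.84 with cocaine in Cy5 and -1.35 and -1.001 with saline in Cy5, for a log2 ratio of -0.37 ± 0.19 (limma adjusted p = 0.832). Without cocaine in Cy5 replicate 1 it was -0.17, and without cocaine in Cy5 replicate 2 it was -0.58. Ntng1 is measured by 13 spots, of which 10 carry the same transcript record. Those 10 lay between -0.50 and -0.38 (mean -0.46, SD 0.04), and the other 3 at -0.54, 0.01 and 0.31, so that spots of the gene differed in sign. With each record weighted equally the ratio was -0.19. As for Sema7a, the dye-profile values were lower in replicate 1 of each orientation (-0.74 and -0.81) than in replicate 2 (-0.23 and -0.15).

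Unc5b, a netrin receptor of vessels and neurons, had centred ratios of 0.08 and 0.72 with cocaine in Cy5 and of -1.39 and -0.77 with saline in Cy5, and a fitted log2 ratio of -0.34 ± 0.19 (limma adjusted p = 0.851). Its dye-profile values were -0.62 and -0.33 with cocaine in Cy5 and -0.88 and 0.04 with saline in Cy5, below 0 in 3 of 4. Ntn1, the netrin that attracts axons and also signals through Unc5 receptors, stood at 0.19 ± 0.17 (limma adjusted p = 0.906). In dye-profile values its 4 hybridisations lay close together, between 0.20 and 0.27. These are means of 2 spots that differed in size. The spots stood at 0.37 and 0.007 after centring and at 0.38 and 0.07 in dye-profile values. The other 8 genes of this family lay between -0.15 and 0.19 on the log2 scale, none below an unadjusted limma p of 0.329. Of the Unc5 receptors, Unc5a stood at 0.06 and Unc5c and Unc5d at -0.07 and -0.04.

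**Figure D3:**
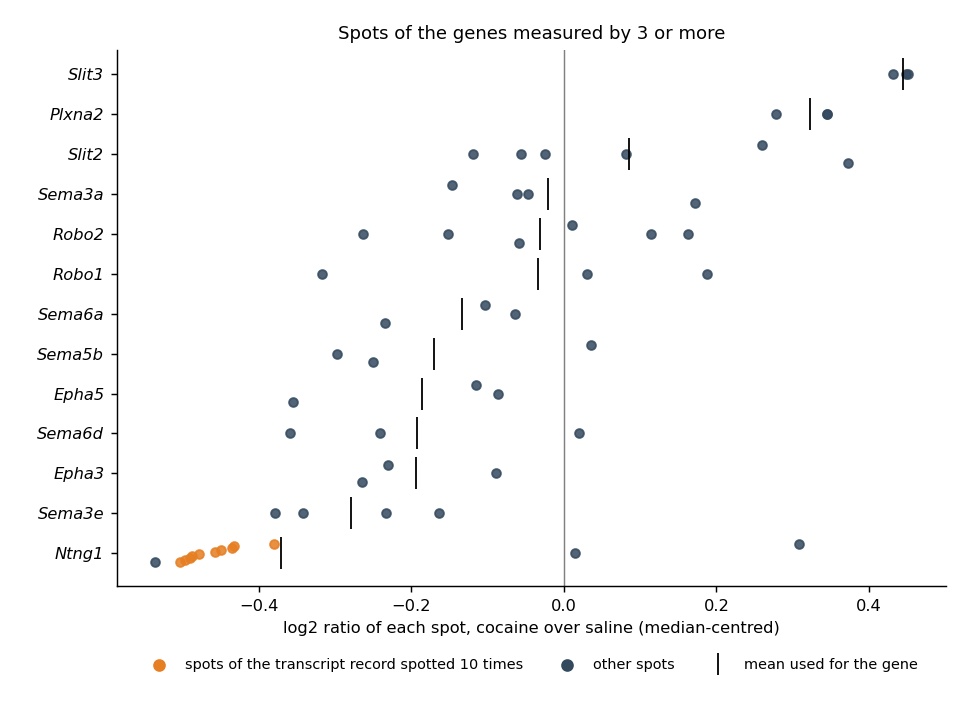
Log2 ratio of cocaine over saline for each array spot of the 13 genes measured by 3 or more spots, after median centring, with orange for the Ntng1 transcript record spotted 10 times, dark points for other spots and a black tick for the mean used for the gene. The Slit3 spots lie within 0.43 to 0.45, while the spots of Ntng1, Robo1, Robo2 and Slit2, among others, fall on both sides of 0.

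Agreement between spots bounds how far a gene's single value can be read. Of the 66 genes 31 had 1 spot and 35 had several, and in 19 of those 35 the spots differed in sign, among them Ntng1 and Robo1. Slit2 shows the range for a gene whose ratio is near 0, with 6 spots between -0.12 and 0.37. Robo2, with 6 spots between -0.26 and 0.16, and Robo1, with 3 between -0.32 and 0.19, were alike in this. Both spots of Efnb2 and all 3 of Plxna2 were each of 1 sign.

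The centred ratios of members with a large dye effect lay mostly above 0, as they did over the whole array. The 15 members with a dye coefficient above 1 on the log2 scale had a median cocaine ratio of 0.23, and 12 of them lay above 0. Over all 5511 genes with such a dye coefficient the median was 0.17, and 86.3% lay above 0. In dye-profile values the medians were 0.06 for the members and -0.002 for all genes. Plxnb1, Plxna2, Epha4, Robo4 and Slit3 are among these 15, and their ratios became smaller on that scale. Efnb2 and Ephb6, with dye coefficients of 0.71 and 0.46, also became smaller, from 0.48 to 0.37 and from 0.44 to 0.36. The members of the 15 that lay below 0 moved further below it. Sema7a went from -0.36 to -0.54, Sema5b from -0.17 to -0.32 and Plxnb3 from -0.13 to -0.27. Unc5a, also of the 15, went from 0.06 to -0.12. Ratios and dye coefficients come from the same 4 hybridisations, and the part of the dye in the centred ratios of these genes was not tested.

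**Figure D4:**
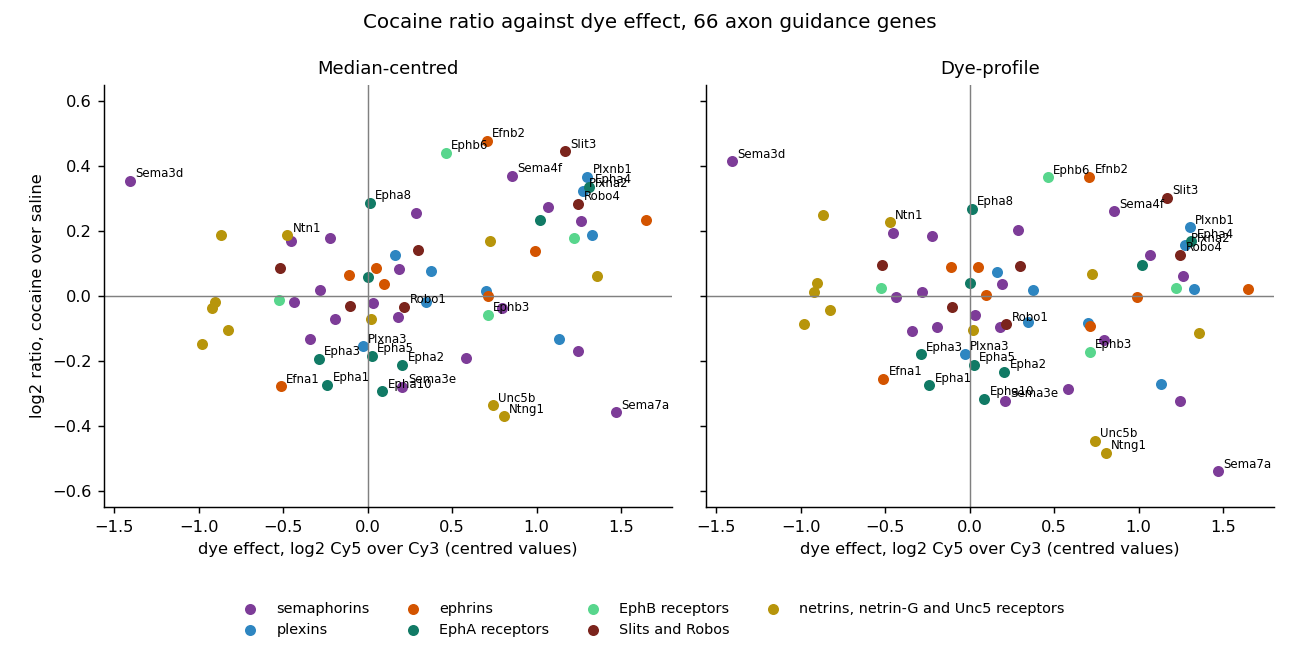
Log2 ratio of cocaine over saline (vertical axis) against the dye effect, log2 of Cy5 over Cy3 (horizontal axis), for the 66 genes coloured by family, after median centring (left) and as dye-profile values (right), with the 24 genes of the selection rule labelled. On the left, 12 of the 15 genes with a dye effect above 1 lie above 0, against 86.3% of all such genes on the array. On the right Plxnb1, Plxna2, Epha4 and Robo4 have moved towards 0, while Sema7a, which lies below 0, has moved away from it.

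The wider pathway was read from 3 lists, of which 0 genes passed the adjusted threshold by limma. Among 26 co-receptors, the proteins that share ligands with the families above, 14 lay above 0 and the median was 0.03 on the log2 scale. At an unadjusted p below 0.05 there were 1 higher (2.8% of all genes) and 1 lower (3.24%). These were Lrrc4c, the postsynaptic partner of netrin-G1, at 0.49 ± 0.18 (limma adjusted p = 0.762), and Nrp2, a neuropilin that pairs with plexins to bind class 3 semaphorins, at -0.43 ± 0.17 (limma adjusted p = 0.784). Nrp2 lay below 0 in all 4 centred hybridisations, at -0.62 and -0.47 with cocaine in Cy5 and -0.49 and -0.13 with saline in Cy5. Nrp1 stood at 0.09 ± 0.17 and Dcc, the netrin receptor that attracts axons, at 0.06 ± 0.17.

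Of 52 cytoplasmic effectors, which carry the receptor signal to the cytoskeleton, 38 lay above 0 after centring, with a median of 0.08 on the log2 scale, and 21 in dye-profile values, with a median of -0.02. Dpysl4, of the collapsin response mediator family, stood at 0.55 ± 0.18 (limma adjusted p = 0.674) and Ptpn11, a tyrosine phosphatase, at 0.37 ± 0.18 (limma adjusted p = 0.822). Among 15 other guidance cues 7 lay above 0 and the median was -0.07. At an unadjusted p below 0.05 there were 2 higher (2.8% of all genes) and 2 lower (3.24%). Shh, the secreted hedgehog ligand, stood at -0.55 ± 0.18 (limma adjusted p = 0.629) and Wnt4 at -0.41 ± 0.18 (limma adjusted p = 0.792). The 2 higher, named here after their values were seen, were Wnt5a at 0.39 ± 0.18 (limma adjusted p = 0.804) and Bcan, a brain proteoglycan, at 0.39 ± 0.18 (limma adjusted p = 0.814).

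Markers of cell types in and around the accumbens were read in the same hybridisations. Of 18 markers of cortical projection neurons 13 lay below 0, with a median of -0.19 on the log2 scale, and 3 were called lower by limma, among them Tbr1, at -1.45 ± 0.18, and Nrn1, at -1.71 ± 0.24 (limma adjusted p = 0.00602 and 0.0143). In dye-profile values 0 of them passed, as did 0 of all genes, while Tbr1 stood at -1.44 and Nrn1 at -1.76. All 14 markers of medium spiny neurons lay above 0, with a median of 0.32 after centring. Their median dye coefficient was 1.42 on the log2 scale, and 13 had a dye effect past the threshold. Of all genes with a dye coefficient above 1, 86.3% lay above 0 after centring. In dye-profile values 13 of the 14 markers lay above 0, with a median of 0.13, and 0 passed by limma on either scale. Oligodendrocyte markers (4 of 14 above 0, median -0.13 after centring) had dye-profile medians of -0.50 and 0.12 in the cocaine in Cy5 pairs and of -0.46 and -0.11 in the saline in Cy5 pairs, lower in replicate 1 both times. Among the members, Sema7a, Ntng1, Sema3e, Unc5b and others not listed here had their lower dye-profile values in replicate 1 of each orientation. Slit1, Slit3 and Plxnb1 had their higher ones there. Replicate numbers only order the arrays within an orientation. Members of either kind were not counted, nor was the share of all genes with such an order. A link between these members and the oligodendrocyte markers was not tested. Medians of the other lists were -0.04 for 9 striatal interneuron markers, -0.04 for 12 septal, diencephalic and pallidal markers, 0.06 for 9 astrocyte, 0.03 for 9 microglial, 0.02 for 12 endothelial and mural and -0.13 for 6 choroid plexus and ependymal markers. Less tissue of one kind and less RNA per cell cannot be told apart in such samples, and the part of cell composition in the guidance gene ratios was not tested.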

How the data were processed

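The deposited log2 ratios of 2-colour arrays, 44290 rows per scan, were used as given. How the authors extracted and normalized the spots is not given in the sources used here. Per the labels, aliquots of 75 ng RNA were amplified and labelled. A single gene symbol was found for 32042 rows, none for 12201 and several for 47, which stayed unnamed. Each row without a single symbol was counted as a gene of its own. All 66 members matched the gene table by identifier and 0 symbols changed. Stop values of 16.61 or -16.61, between 4 and 37 rows per scan, were set to missing. Column medians lay between -0.885 and 0.823.

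Each scan was centred on its median, spots of a symbol were averaged, and so were both scans of an array. All genes were fitted with limma 3.58.1 (R 4.3.3) using 1 coefficient for cocaine and 1 for dye orientation, which leaves 2 residual degrees of freedom. Tests were two-sided and adjusted by Benjamini-Hochberg over all genes. Of the 5 measurements that the design text mentions, 4 hybridisations were used here. The fit was tested on simulated data. No intensities were used here, so no filter on dim spots could be made, and the number of arrays limits the precision. Dye-profile values are residuals of a loess (span 0.3, 4 iterations) along the mean dye ratio of the Agilent scans. A pair of mice is 1 replicate. The p-values and intervals rest on a spread between pairs that limma pools in large part over all genes. The prior had 15.9 degrees of freedom after centring and 3.35 in dye-profile values, against 2 residual ones. They are thus not a measure of each gene's own spread alone.

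The members, lists and tests were chosen with earlier results of these data known. The named genes are members past the threshold, the 10 of smallest p in each direction, the member of smallest p of each family in each direction, and the 2 genes of smallest p of each pathway list. The rule also takes 2 genes of each marker list, of which only those of cortical neurons are printed. Further members are named to complete a family. Alternatives were the dye profile, no centring, each scanner alone, no dye term, one spread for all columns, each hybridisation left out, single spots, symbol rows alone and, added after seeing the data, transcript records averaged first.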

Additional observations from a re-analysis of the deposited data

Results flagged for a closer look

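In dye-profile values 3 of the 66 members had 1 hybridisation far from the other 3, and chance gives about 3.3. For Efnb2, cocaine in Cy5 replicate 2 stood at 0.10 against 0.42 to 0.48 in the others, a gap of 0.854 of the whole range. For Epha10 the distant value was -0.43, in saline in Cy5 replicate 2, with the others from -0.29 to -0.27 and a gap of 0.915 of the range. It had the same sign as the rest. For Plxna3, cocaine in Cy5 replicate 1 stood at -0.53 against -0.09 to -0.01 (0.863), and without that hybridisation the centred ratio of the gene was -0.02, against -0.16 with it.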

How the results depend on the processing

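None of the 66 members passed under any setting tried (0 in each). The number of genes passing over the whole table, 8 after centring, was 0 in dye-profile values, with Axon scans alone, without a dye term and with one spread for all columns, 20 with Agilent scans alone, 25 over rows with a symbol only, 90 with each probe on its own, 97 without centring, and 66 to 288 without 1 hybridisation. Members at an unadjusted p below 0.05, 4 after centring, numbered 11 in dye-profile values, 8 with Agilent scans alone, 7 with one spread for all columns, 7 over rows with a symbol only, 0 without a dye term and 0 to 5 without 1 hybridisation. Members with a dye effect, 39 after centring, numbered 6 with Axon scans alone and 0 in dye-profile values, where the dye is removed by construction. Without a dye term there is no such count.

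The median of the members lay between 0.01 and 0.05 on the log2 scale. Of 312 values of the 24 named genes under alternatives, 305 kept their direction and stayed on the same side of the threshold, and 7 had the opposite sign. With Agilent scans alone these were Plxna3 at 0.0095, Robo1 at 0.01475 and Sema3d at -0.0505, and with each probe on its own Robo1 at 0.03. Leaving out 1 hybridisation, Robo1 ranged from -0.11 to 0.04783 and Ephb3 from -0.14 to 0.02438. The cause was not tested. Each ratio already pairs 1 cocaine mouse with 1 saline mouse. No paired analysis was possible because, beyond that pairing, the labels number no replicates that could form a further block.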
